A study of Rattus norvegicus with 15 samples.

Results

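The minus-strand probes of the ultraconserved elements were followed through the 3 stages of enamel formation in the rat incisor. They were chosen by name alone: every probe that was no control spot and that the array design names as an element number followed by a minus sign, 481 of the 38321 probes on the array. The tissue was the enamel organ, the epithelium that makes enamel, taken from the mandibular incisor of Wistar Hannover rats 4 weeks old, with no treatment or transgene named in the labels. Total RNA of the cervical loop (the growing end of the tooth, with the progenitors of the enamel-forming ameloblasts), of the secretory stage (when enamel matrix is laid down) and of the maturation stage (when matrix is removed and mineral is added) was labelled with Cy3 and hybridized to 5 arrays per stage, 15 in all. The series design names 5 rats as the source of the RNA samples. Each sample is a whole piece of tissue, so fewer cells of a type and less RNA per cell cannot be told apart in any of the values below.

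Ultraconserved elements are DNA segments that human, mouse and rat share without a single base difference. Many lie in or beside genes for RNA-binding and splicing proteins, where some overlap exons whose inclusion sends the transcript to decay, and many others lie far from coding sequence around transcription factors that direct development, where a number of them act as enhancers. Some are transcribed, from one strand or from both, and such transcripts have been described as differing between tissues and between normal and cancer cells. The array carries a plus and a minus probe for every element, so that RNA of either strand can be recorded. Elements are identified here by their number in the array design. Their genome positions, host genes and sequences were not used here, and no element is tied to a gene. The labels and files do not say which orientation of RNA the sign stands for, and "minus" is used as the name of the probe only.

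The stage of each array was taken from its tissue label, which its description and source name follow. The titles of 8 arrays, the secretory and maturation arrays numbered 2 to 5, name the other of these stages. Over the 197 minus probes carried into the tests, 2 secretory arrays by the tissue label correlated at 0.982 to 0.993, and 2 maturation arrays at 0.985 to 0.994. A secretory and a maturation array correlated at 0.917 to 0.943. With stages taken from the titles, 0 minus probes passed the test between maturation and secretory stage, and 49 (24.9%) had an unadjusted p under 0.05 (limma). Over all features 0 passed and 25.4% had an unadjusted p under 0.05. The arrays were read in 5 scans on 2 scan days. All cervical loop arrays were scanned on the second day, apart from the other stages, so cervical loop and scan day cannot be told apart. Of the maturation and secretory arrays, 1 scan held both stages (maturation replicate 5 and secretory replicates 1 to 3). Between 67.4% and 78.9% of an array's spots were well above background, with 72.6% to 78.9% on cervical loop arrays, 67.4% to 72.1% on secretory arrays and 67.7% to 74.96% on maturation arrays. None of 26 marker genes for ameloblasts, mesenchyme, blood, vessels, muscle and nerve is named on the array, and none of 27 genes listed as holding ultraconserved elements, so neither the labelled tissue nor host genes could be checked.

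The first question was how many of the minus probes gave a signal in enamel organ. A probe was called detected on an array when at least 50% of its 3 spots were marked well above background by the scanner software. Of the 481 minus probes, 197 were detected on 0 arrays, 142 on 1 to 14 arrays and 142 on all 15 arrays. Detection on all 5 arrays of at least 1 stage, the filter for testing, was met by 197 probes (41.0%), a group distinct from the equally large one detected nowhere. Among the plus probes 193 met it (40.1%), and over the whole array 28863 features passed from 38321 probes (75.3%). Of the 197, 142 met it in all 3 stages, 23 in 2 stages and 32 in 1 stage only. Those 32 comprised 22 that met it through the cervical loop, 4 through the secretory stage and 6 through the maturation stage. A member that was tested only because 1 stage was bright had to differ between stages, so counts are also given for the 142 detected everywhere.

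The cervical loop gave the most detected minus probes on most of its arrays. Cervical loop arrays detected 187 to 242 of them (median 232), secretory arrays 170 to 195 (median 183) and maturation arrays 162 to 211 (median 196). The lowest cervical loop value, 187 on replicate 2, lay inside the range of the other stages, whereas the remaining 4 lay above it. That array also had the lowest share of all its spots above background among the cervical loop arrays, 72.6%, and the part of this in the count was not tested. Of the plus probes, cervical loop arrays detected 184 to 239, secretory arrays 158 to 188 and maturation arrays 150 to 202.

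**Figure D1:**
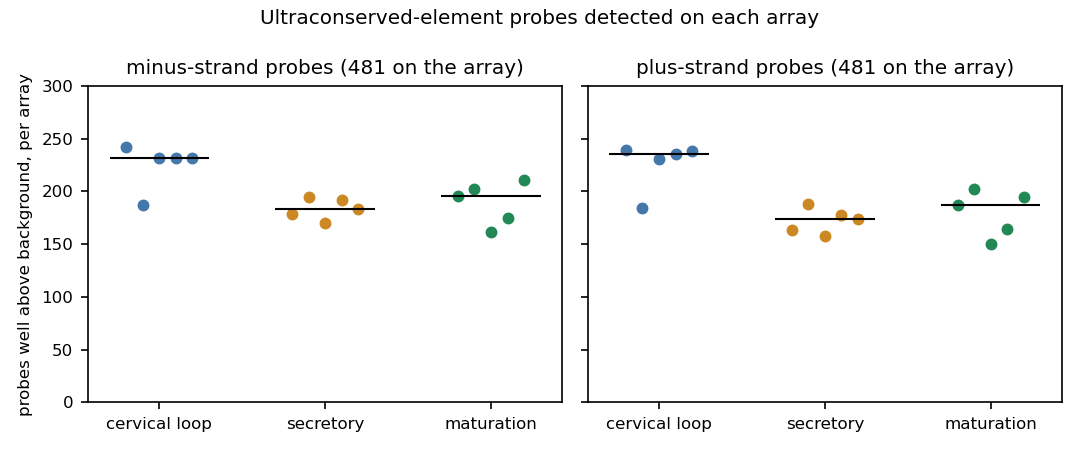
Number of ultraconserved-element probes well above background on each array (vertical axis, of 481), for minus-strand probes on the left and plus-strand probes on the right; each point is 1 array and the lines are stage medians. Cervical loop arrays lie at 187 to 242 minus-strand probes, secretory arrays at 170 to 195 and maturation arrays at 162 to 211.

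Few minus probes were detected in a single stage alone. In the cervical loop, 7 were detected on all 5 arrays and on 0 arrays of both other stages: uc.85-, uc.220-, uc.302-, uc.332-, uc.343-, uc.450- and uc.470-. In the secretory stage 1 probe, uc.392-, had this pattern, and in the maturation stage 0 did. Signals are given as normalized log2 signal, the log2 of the processed signal less the array's 75th percentile, and they are not compared between probes, whose brightness also depends on their sequence. The 32 probes that met the filter in 1 stage had a highest stage mean of -5.42 to -0.12 (median -4.96). The 24 just outside, detected on 4 of 5 arrays of their best stage, had -5.85 to -4.32 (median -5.33). The lowest signal that was still well above background lay between -6.87 and -5.47 on the 15 arrays, so both sides of the filter lay near it. The other 63 probes outside were detected on 1 to 3 arrays of their best stage.

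Both strands of an element were often not detected together. For 104 elements both probes met the filter, for 93 only the minus probe, for 89 only the plus probe and for 195 neither. Of the 93 elements with only the minus probe, 61 had a plus probe detected on 0 arrays. The reverse held for 60 of the 89 with only the plus probe. Taken singly, 41.0% of minus and 40.1% of plus probes met the filter. Whether both met it together more or less often than these shares give was not tested.

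Between arrays of one stage the 197 minus probes had a median SD of 0.31 in the cervical loop, 0.27 in the secretory stage and 0.26 in the maturation stage, on the normalized log2 scale. A difference among the 3 stages was called for 159 of the 197 (80.7%), where 83.0% of all 28863 features tested were called (limma F test, Benjamini-Hochberg adjusted p under 0.05 over all features). Most features of the array thus changed among stages, and the minus probes were called about as often as the rest. As a set the tested minus probes were dimmer than the array, with a median level of -3.70 against -1.72 over all features tested. Shares over all features below are not matched for this, and its part in the counts was not tested. The comparisons below share the arrays of a stage, so their counts are not independent of each other.

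From cervical loop to secretory stage, 48 of the 197 minus probes rose and 73 fell, and 76 were not called (limma, adjusted p under 0.05). Over all features 21.4% rose and 36.7% fell, so the 48 (24.4%) and 73 (37.1%) lay near that background. The median difference was -0.19 for the minus probes and -0.19 for all features. Changes of at least 2-fold were seen in 19 probes that rose (8.86% of all features) and 31 that fell (15.4%). The arrays of both stages did not overlap for 33 that rose (14.6%) and 44 that fell (24.1%). Among the 142 probes detected on all arrays, 39 rose and 44 fell (23.2% and 33.1% of all such features). The split depended on the scaling: 64 rose and 48 fell with each array scaled to its median (29.6% and 25.4% of all features), and 65 rose and 46 fell with quantile normalization (26.3% and 30.9%). The normexp setting took the median signal in place of the processed one and a correction that lifts the lowest signals before the logarithm. It left 72 that rose and 16 that fell (36.5% and 8.12%), against 27.3% and 20.7% of all features, so the counts did not lie near the background there.

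From secretory to maturation stage more minus probes fell than rose: 96 of the 197 (48.7%) fell and 13 (6.60%) rose, with 88 not called. Of all features 34.4% fell and 25.1% rose. Their median difference was -0.47, and that of all features -0.12. At least 2-fold, 35 fell (12.4% of all features) and 5 rose (10.1%). The arrays of both stages did not overlap for 66 probes that were lower in maturation (24.9% of all features) and for 7 that were higher (19.6%). Among the 142 detected on all arrays, 71 fell and 9 rose, against 34.1% and 26.2% of all such features. With median scaling 80 fell and 26 rose, where 24.3% of all features fell and 33.3% rose. Quantile normalization gave 74 and 26 (27.7% and 26.8% of all features). With normexp 138 fell and 11 rose, and falls also prevailed over the whole array (46.3% and 20.6%). With scan as a fixed block, a comparison that rests on the 1 scan with both stages and its single maturation array, 27 fell and 20 rose (13.7% and 10.2%), against 15.0% and 13.0% of all features. The counts thus showed no excess of falls over the whole array in that setting. The median difference there was -0.22 for the minus probes and -0.07 over all features. Within that scan alone 9 fell and 8 rose (4.57% and 4.06%), against 5.63% and 6.12% of all features.

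Arrays of the same replicate number deviated together in these stages, with correlations of deviations of 0.106 to 0.290 in every pair. With the number as a block over the secretory and maturation arrays, 109 minus probes fell and 22 rose (55.3% and 11.2%), against 37.7% and 28.9% of all features; all 109 calls made without the block were kept and 22 were added.

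Between cervical loop and maturation stage 110 of the 197 minus probes (55.8%) fell, 23 (11.7%) rose and 64 were not called. Over all features 42.7% fell and 20.6% rose. Their median difference was -0.59, and over all features it was -0.28. At least 2-fold, 58 fell (20.1% of all features) and 9 rose (8.26%). Without overlap between the stages there were 77 that fell (30.4%) and 18 that rose (14.2%). Among the 142 detected on all arrays, 68 fell and 17 rose (38.8% and 22.2% of all such features). With median scaling 72 fell and 43 rose (23.2% and 37.4% of all features), and with normexp 64 fell and 20 rose (33.5% and 19.4%). Median scaling also moved the median of all features, to 0.03 between secretory stage and cervical loop, 0.10 between maturation and secretory stage and 0.16 between maturation stage and cervical loop. The median of the minus probes then became 0.03, -0.25 and -0.15.

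Some minus probes were called in one direction under all 5 treatments of the signal (processed signal scaled to the 75th percentile or to the median, quantile normalization, normexp, and the authors' deposited log2 table). All 48 that rose into the secretory stage were among them, but only 12 of the 73 that fell. Over all features this held for 5843 of the 6172 that rose and 4049 of the 10597 that fell (20.3% and 14.1% of all those tested). From secretory to maturation stage 65 of the 96 that fell and 7 of the 13 that rose were called in all of them. Over all features these were 6394 of the 9915 that fell and 4864 of the 7245 that rose (22.2% and 16.9% of all those tested). For cervical loop and maturation stage the numbers were 43 of the 110 that fell and 16 of the 23 that rose. Over all features they were 5176 of the 12319 that fell and 4561 of the 5936 that rose (18.0% and 15.8% of all those tested).

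**Figure D2:**
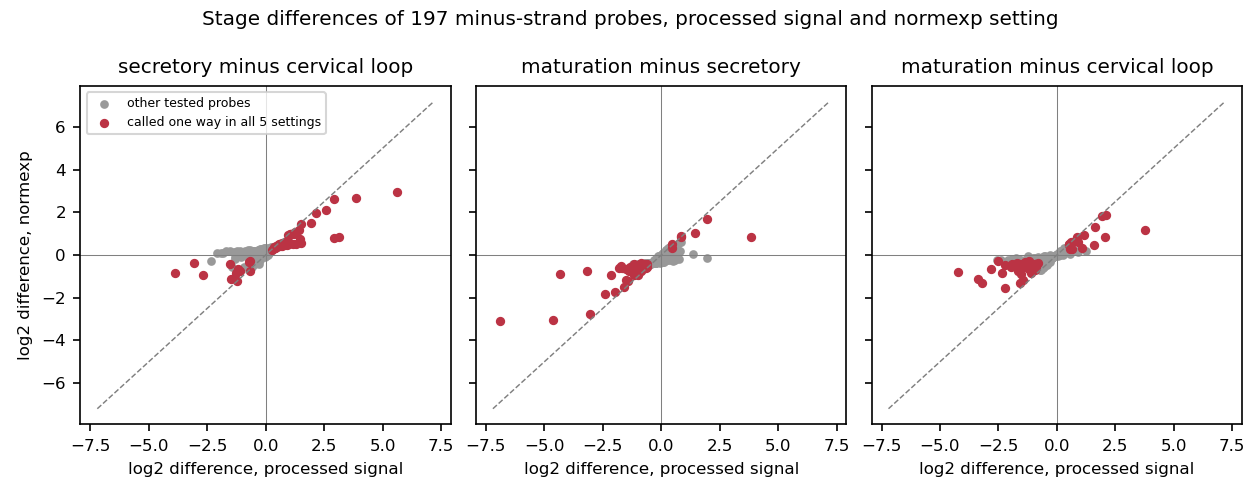
Log2 difference between stages of the 197 tested minus-strand probes, with the processed signal on the horizontal axis and with normexp correction on the vertical axis; each point is a probe, red points were called in one direction in all 5 settings and the dashed line marks equal values. Most probes that are lower in the secretory stage than in the cervical loop lie near 0 on the normexp axis, and 12 of the 73 that fell are red (4049 of 10597 over all features).

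A secretory peak gave the largest change among the minus probes. At least 2-fold higher in the secretory stage than in both others were 9 of 197 minus probes, a share near the 5.21% of all features. These were uc.10-, uc.19-, uc.125-, uc.199-, uc.305-, uc.392-, uc.398-, uc.414- and uc.456-. On the secretory arrays uc.125- had -0.10, -0.15, -0.58, 0.22 and 0.03. It had -5.54, -6.34, -4.29, -6.12 and -6.36 in the cervical loop, where 2 of 5 arrays detected it, and -7.27, -6.69, -7.76, -7.42 and -5.83 in the maturation stage, where 1 did. The secretory arrays stood far above all others, with no overlap. The secretory mean was at least 44.9-fold the cervical loop level and at least 69.3-fold the maturation level. Such bounds set the brighter stage's mean against the dimmer stage's mean, taking for each array its lowest signal still well above background, or the dim probe's signal where this was higher, and they hold for the processed signal. The fitted differences were 5.61 ± 0.39 (SE; adjusted p = 2.02e-08, limma) from cervical loop to secretory and -6.88 ± 0.39 (adjusted p = 1.25e-09) from secretory to maturation. With normexp they were 2.95 and -3.09. This probe met the filter through the secretory stage only, so its adjusted p-values do not count as support for a difference.

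The probe uc.398- was detected on all 15 arrays. It had -3.47, -3.66, -2.46, -3.26 and -3.56 in the cervical loop, 0.82, 0.73, -0.86, 1.31 and 0.84 in the secretory stage, and -4.26, -3.88, -4.27, -4.25 and -3.73 in the maturation stage. Secretory replicate 3 was the lowest of its stage, yet no secretory array overlapped another stage. The differences were 3.85 ± 0.33 (SE; adjusted p = 1.47e-07, limma) into and -4.65 ± 0.33 (adjusted p = 1.32e-08) out of the secretory stage.

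The probe uc.414- followed the same course at a smaller size. It had -0.92, -0.40, -0.67, -0.90 and -1.20 in the cervical loop, 2.32, 2.35, 1.13, 2.40 and 2.28 in the secretory stage, and -1.02, -0.99, -1.16, -1.01 and -0.67 in the maturation stage. Secretory replicate 3 was again the lowest secretory array and lay clear of the others. The differences were 2.92 ± 0.22 (SE; adjusted p = 4.94e-08, limma) and -3.06 ± 0.22 (adjusted p = 1.76e-08). Cervical loop and maturation arrays overlapped, with a difference of -0.15 ± 0.22 (adjusted p = 0.578).

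The probe uc.305- was also detected on all 15 arrays. It averaged -2.02 ± 0.13 in the cervical loop, -0.10 ± 0.14 in the secretory stage and -2.49 ± 0.26 in the maturation stage (SD, n = 5). The secretory arrays lay between -0.24 and 0.09 and overlapped no other stage. Its changes were 1.92 ± 0.13 (SE; adjusted p = 2.04e-08, limma) and -2.40 ± 0.13 (adjusted p = 1.06e-09). The probe uc.10- had secretory values of 2.12, 2.08, 1.49, 1.99 and 2.24, against a range of -0.44 to 0.15 in the cervical loop and 0.08 to 0.82 in the maturation stage. Again no secretory array overlapped another stage, with a rise of 2.14 ± 0.17 (SE) and a fall of 1.60 on the log2 scale. For uc.456- the stage means were -0.25 ± 0.30, 1.17 ± 0.30 and -0.82 ± 0.10 (SD, n = 5) in the order of the stages, with a rise of 1.42 and a fall of 1.99 on the log2 scale.

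The probes uc.199- and uc.392- were detected on few or no arrays outside the secretory stage. The probe uc.392- was detected on all 5 secretory arrays, at -4.26, -4.10, -4.63, -3.92 and -3.95, and on 0 of the 10 others. Its secretory level was at least 4.03-fold that of the cervical loop and at least 4.74-fold that of the maturation stage. For uc.199- the secretory mean was -3.86 ± 0.45 (SD, n = 5), at least 4.49-fold the cervical loop level, where 1 array of 5 detected it, and at least 5.89-fold the maturation level, where 0 did. Both stayed called with normexp, with differences into the secretory stage of 0.79 for uc.392- and 0.86 for uc.199-. Both met the filter through the secretory stage only, so these calls do not count as support for a difference.

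In uc.19- the stages differed while the arrays within a stage were widely spread. It had -1.99, -1.87, -2.96, -0.70 and -0.87 in the cervical loop, 0.27, 1.11, 0.64, 1.35 and 1.03 in the secretory stage, and -1.04, -0.47, -1.61, 0.01 and 0.46 in the maturation stage. The secretory arrays lay above all cervical loop arrays, by 2.56 ± 0.42 (SE; adjusted p = 0.000102, limma), but overlapped the maturation arrays. From secretory to maturation it fell in every pair of one number, with differences of -1.32, -1.58, -2.25, -1.35 and -0.58 for numbers 1 to 5. The SE of this fall was 0.42 without the block and 0.22 with it (adjusted p = 0.00934 and 0.000998, limma).

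**Figure D3:**
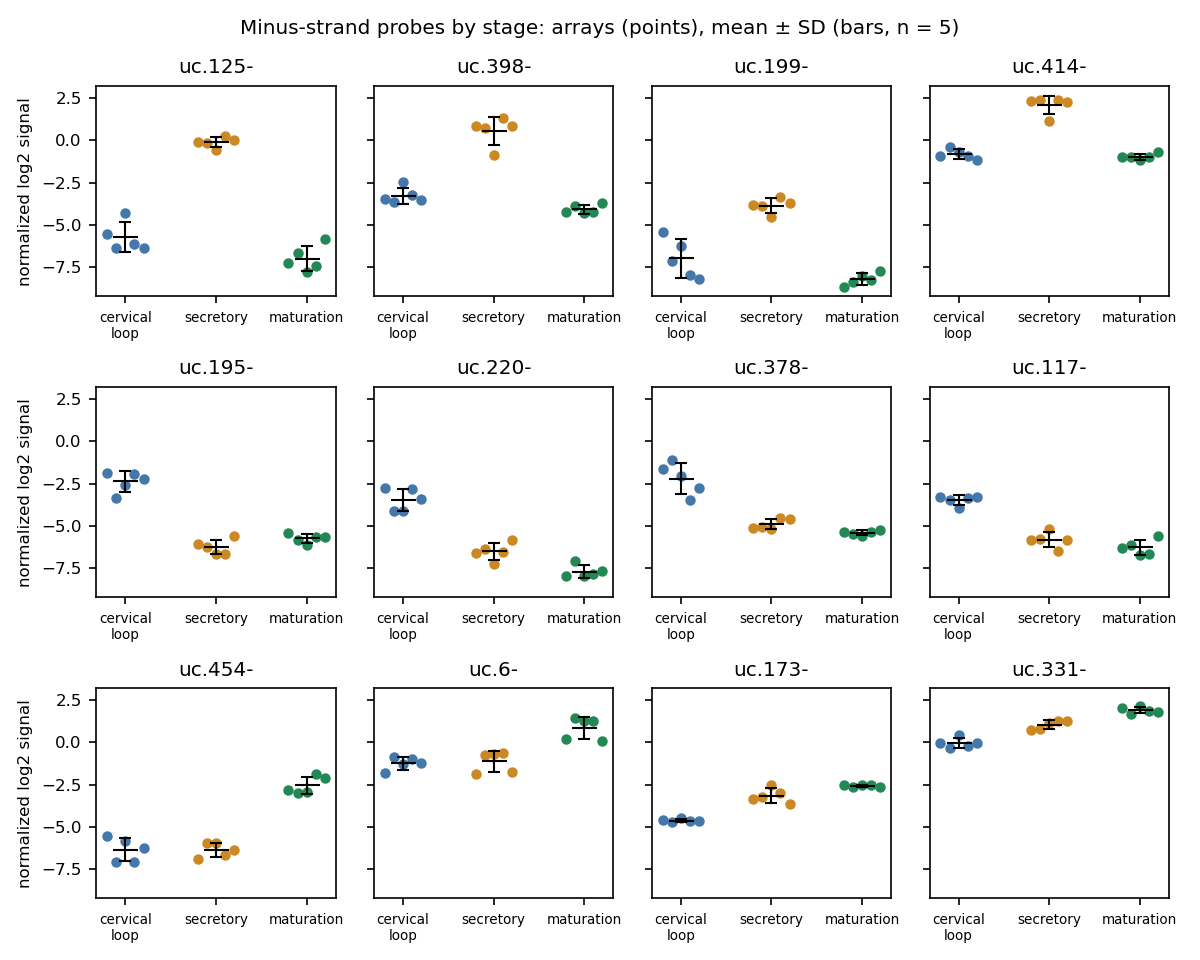
Normalized log2 signal (vertical axis) of 12 minus-strand probes by stage; each point is an array and the bars are the mean ± SD (n = 5). The top row shows probes highest in the secretory stage, such as uc.125- at -0.58 to 0.22 there, the middle row probes highest in the cervical loop, and the bottom row probes that are higher in the maturation stage than in the cervical loop.

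More minus probes were highest in the cervical loop than in the secretory stage, in the same order as over all features (9.4% and 5.21%). The shares of minus probes lay near these. At least 2-fold higher in the cervical loop than in both other stages were 21 of 197 minus probes (9.4% of all features): uc.62-, uc.83-, uc.85-, uc.117-, uc.189-, uc.194-, uc.195-, uc.220-, uc.221-, uc.228-, uc.314-, uc.332-, uc.343-, uc.378-, uc.417-, uc.425-, uc.430-, uc.435-, uc.450-, uc.452- and uc.470-. With normexp 1 minus probe met this rule. The cervical loop arrays also had more of all their spots above background, as given above, and were scanned on their own day; the part of either in this group was not tested.

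The largest fall from cervical loop to secretory stage was that of uc.195-. It had -1.86, -3.33, -2.56, -1.91 and -2.24 in the cervical loop, -6.09, -6.23, -6.66, -6.64 and -5.61 in the secretory stage, and -5.40, -5.85, -6.12, -5.67 and -5.63 in the maturation stage. The cervical loop arrays lay above all others; the secretory arrays detected it on 0 and the maturation arrays on 4 of 5. The cervical loop level was at least 10.1-fold the secretory one. The fitted difference was -3.87 ± 0.26 (SE; adjusted p = 1.83e-08, limma), and -0.83 with normexp. Against the maturation stage it was -3.36 ± 0.26 (adjusted p = 4.76e-08). This probe met the filter through the cervical loop only, so its adjusted p-values do not count as support for a difference.

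The probe uc.378- was detected on every array. It had -1.63, -1.12, -2.07, -3.44 and -2.77 in the cervical loop, and means of -4.90 ± 0.31 in the secretory and -5.41 ± 0.14 in the maturation stage (SD, n = 5). The cervical loop arrays were widely spread but lay above all others. The differences were -2.70 ± 0.32 (SE; adjusted p = 4.63e-06, limma) to the secretory stage and -3.21 ± 0.32 (adjusted p = 6.17e-07) to maturation, and -0.91 and -1.33 with normexp.

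For uc.220- the cervical loop arrays lay between -4.15 and -2.77, and 0 arrays of the other stages detected it. Its cervical loop level was at least 4.78-fold the secretory and at least 7.79-fold the maturation level. For uc.117-, with a cervical loop mean of -3.48 ± 0.28 (SD, n = 5), the bounds were at least 4.36-fold against the secretory stage, with detection on 0 arrays, and at least 5.91-fold against maturation, with detection on 2. The fall of uc.117- to the secretory stage was not called with normexp (-0.27, adjusted p = 0.0568, limma).

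The other named members of this group had a cervical loop signal close to background. For uc.343-, uc.450-, uc.470- and uc.417- the cervical loop means were -5.08, -4.88, -5.31 and -5.21, and the secretory arrays detected none of them. Their falls to the secretory stage were 2.09, 1.89, 1.70 and 1.53 on the log2 scale, while the bounds were at least 1.55-fold, 1.78-fold, 1.32-fold and 1.42-fold. With normexp the differences of these 4 turned sign, to 0.12, 0.10, 0.18 and 0.18. Their direction between cervical loop and secretory stage therefore differed between the processed signal and the normexp setting.

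At least 2-fold under all 5 treatments of the signal, 1 minus probe fell from cervical loop to secretory stage, uc.452-, singled out after its values were seen. Shares over all features are not given for this rule, so the number of members that met it is not read against the array. The values of uc.452- follow. It had 0.22, -0.98, -0.54, 0.24 and 0.29 in the cervical loop and -1.59, -1.23, -2.07, -1.72 and -1.53 in the secretory stage, without overlap, and a maturation mean of -1.75 ± 0.18 (SD, n = 5). The difference was -1.47 with the processed signal and -1.10 with normexp. The probes that fell at least 2-fold to maturation in all 5 treatments were uc.61-, uc.194-, uc.195-, uc.378- and uc.452-. Of these, uc.194- fell through both later stages, with means of -0.82 ± 0.42, -2.08 ± 0.17 and -3.02 ± 0.28 (SD, n = 5). The probe uc.61- had -0.23 ± 0.32 in the cervical loop, -0.52 ± 0.14 in the secretory stage and -1.69 ± 0.18 in maturation (SD, n = 5).

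More minus probes were lowest in the maturation stage than in either other stage. At least 2-fold lower in maturation than in both other stages were 17 of 197 minus probes (5.33% of all features), against 4 that were lowest in the cervical loop (2.36%) and 2 that were lowest in the secretory stage (3.35%). Among the 17, uc.125- and uc.199- met the filter through the secretory stage only, and uc.220- and uc.302- through the cervical loop only. For these the order of the dimmer stages rests on signals mostly not detected. Another member of the 17 is uc.47-. It had -2.74, -3.29, -3.48, -2.51 and -1.91 in the cervical loop, -2.65, -2.67, -2.77, -3.84 and -2.97 in the secretory stage, and -5.16, -5.27, -5.38, -5.32 and -4.55 in the maturation stage. The maturation arrays lay below all others, whereas the other stages overlapped. The falls were 2.15 ± 0.29 (SE; adjusted p = 1.41e-05, limma) from the secretory stage and 2.35 ± 0.29 (adjusted p = 4.85e-06) from the cervical loop, on the log2 scale.

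Few minus probes were highest in maturation. At least 2-fold above both other stages there were 3 of 197, uc.6-, uc.423- and uc.454- (4.66% of all features). The probe uc.454- had -2.83, -3.01, -2.92, -1.88 and -2.11 on the maturation arrays. In the cervical loop it had -5.52, -7.06, -5.83, -7.05 and -6.25, with detection on 2 arrays, and in the secretory stage -6.92, -5.97, -5.96, -6.64 and -6.36, with detection on 0. All maturation arrays lay above all others. The maturation level was at least 8.83-fold the secretory and at least 10.5-fold the cervical loop level. The rise from the secretory stage was 3.82 ± 0.32 (SE; adjusted p = 8.58e-08, limma), and 0.84 with normexp. This probe met the filter through the maturation stage only, so its adjusted p-value does not count as support for a difference. Within the scan that held both stages, 1 maturation array against 3 secretory arrays, the difference was 4.17.

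The probe uc.6- was bright in all stages. It had -1.84, -0.88, -1.30, -0.96 and -1.22 in the cervical loop, -1.86, -0.76, -0.68, -0.61 and -1.74 in the secretory stage, and 0.20, 1.42, 1.27, 1.24 and 0.08 in the maturation stage. No maturation array overlapped another stage, while cervical loop and secretory arrays did. In both later stages numbers 1 and 5 were the lowest arrays, so the rise was nearly equal in every pair: 2.05, 2.19, 1.95, 1.85 and 1.82 for numbers 1 to 5. The rise of 1.97 had an SE of 0.32 without the block and 0.10 with it (adjusted p = 8.1e-05 and 5.98e-06, limma). Within the scan that held both stages, which sets maturation number 5 alone against secretory numbers 1 to 3, the difference was 1.18; with scan as a fixed block the rise was not called (adjusted p = 0.187, limma).

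**Figure D4:**
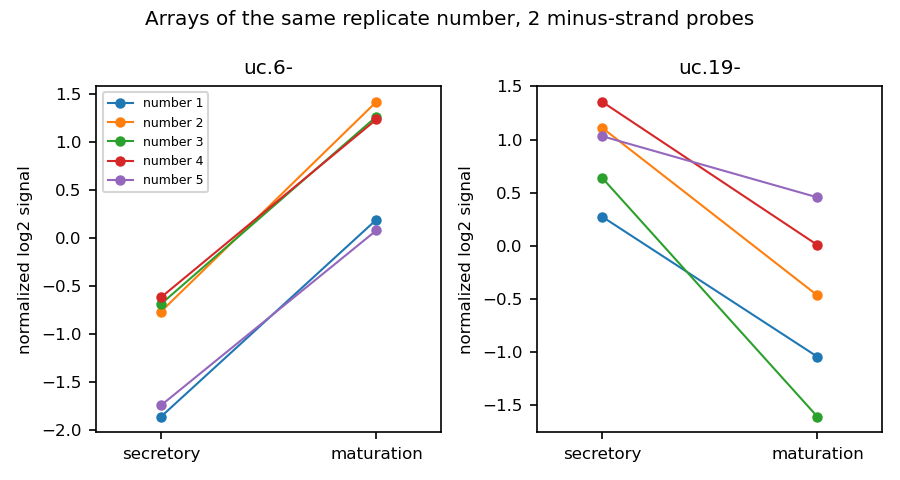
Normalized log2 signal (vertical axis) of uc.6- and uc.19- on secretory and maturation arrays; lines join the arrays of the same replicate number. For uc.6- the lines are nearly parallel, with rises of 1.82 to 2.19, and for uc.19- all 5 lines fall.

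Other rises into maturation were smaller. The probe uc.331- rose at each step, with means of -0.05 ± 0.30, 1.03 ± 0.26 and 1.89 ± 0.17 (SD, n = 5) in the order of the stages. Neighbouring stages did not overlap, with rises of 1.08 ± 0.16 (SE; adjusted p = 3.48e-05, limma) and 0.86 ± 0.16 (adjusted p = 0.000267). Within the shared scan, with its 1 maturation array, the second difference was 0.92. The probe uc.173- had -4.61, -4.73, -4.49, -4.65 and -4.65 in the cervical loop and -2.50, -2.66, -2.55, -2.52 and -2.63 in the maturation stage, a rise of 2.05 ± 0.17 (SE; adjusted p = 6.28e-08, limma), with a secretory mean of -3.15 ± 0.44 (SD, n = 5) between them. The probe uc.325- rose from -1.95 ± 0.07 to -0.32 ± 0.36 (SD, n = 5) between cervical loop and maturation. For uc.36- and uc.350- the rises from cervical loop to maturation were 1.60 and 1.26. The rise of uc.350- was not called with normexp (0.20), and 1 of 5 cervical loop arrays detected it.

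Against the secretory stage, uc.324- and uc.129- were lowest there rather than highest in maturation. The probe uc.324- averaged -0.81 ± 0.20, -1.93 ± 0.59 and -0.48 ± 0.14 (SD, n = 5) in the order of the stages, a fall of 1.12 on the log2 scale and a rise of 1.45 ± 0.22 (SE; adjusted p = 4.38e-05, limma). With scan as a fixed block the rise was 1.59 (adjusted p = 0.0369, limma), resting on 1 maturation array. For uc.129-, detected on 0 secretory arrays, the rise of 1.94 became -0.12 with normexp, and its bound was at least 1.46-fold. The probe uc.423- rose by 1.35 from the secretory stage, and with normexp the difference was 0.04. The probe uc.46- fell into and rose out of the secretory stage, with means of 4.82 ± 0.35, 3.60 ± 0.23 and 4.46 ± 0.16 (SD, n = 5). With scan as a fixed block, resting on 1 maturation array, its difference was 0.70 and not called (adjusted p = 0.0616, limma).

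Some minus probes varied little. Of those detected on all 15 arrays, the smallest ranges of stage means belonged to uc.48-, uc.263-, uc.246-, uc.77- and uc.472-. The means of uc.472- were 0.97 ± 0.22, 0.90 ± 0.14 and 1.10 ± 0.05 (SD, n = 5) in the order of the stages, and those of uc.263- were -1.84 ± 0.13, -1.68 ± 0.19 and -1.82 ± 0.23. All stages overlapped in both probes, and none of their differences was called. Such a result limits the size of a difference and does not show that the level was equal.

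The last question was whether the minus and the plus probe of an element changed alike. For the 104 elements with both probes past the filter, the within-array difference of the 2 log2 values was compared between stages, which asks whether the probes changed by unequal amounts and sets no probe's level against the other's. Scaling an array by a constant cancels in this difference. Some of the 104 elements had a probe that met the filter through 1 stage only, which by itself favours a call of unequal change. Counts for elements with both probes detected on all arrays are given at the end. Unequal change was called for 60 of 104 elements (57.7%) between cervical loop and secretory stage, for 46 (44.2%) between secretory and maturation stage, and for 51 (49.0%) between cervical loop and maturation stage (limma, Benjamini-Hochberg adjusted p under 0.05 over the 104). In each comparison the minus probe was the more positive one for about as many elements as not: 29 and 31, 27 and 19, and 28 and 23.

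Opposite calls on both strands were fewer than calls in the same direction. From cervical loop to secretory stage both probes were called in the same direction for 25 elements and in opposite directions for 13, while 26 were called for the minus probe only, 28 for the plus probe only and 12 for neither. From secretory to maturation stage the counts were 28 and 7, and from cervical loop to maturation 35 and 7. Falls outnumbered rises on either strand in each comparison. From secretory to maturation stage, 48.7% of the tested minus probes fell and 6.6% rose, against 57.0% and 9.3% of the tested plus probes. Unrelated probes with such shares would also give more calls in the same direction than opposite ones. Whether the counts differed from what these shares give was not tested. All elements with opposite calls also passed the test of unequal change. Opposite changes add up in that difference, so this was nearly fixed in advance and is no separate support.

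The element uc.398 had the largest unequal change into the secretory stage. Its minus probe rose by 3.85 while its plus probe fell by 0.68 on the log2 scale, a difference of 4.52 ± 0.37 (SE; adjusted p = 2.93e-08, limma). Out of the secretory stage the minus probe fell by 4.65 and the plus probe by 0.56 (difference -4.09 ± 0.37, adjusted p = 2.02e-07). For uc.195 the minus probe fell by 3.87 into the secretory stage, whereas the plus probe, detected on all 15 arrays, changed by 0.08 and was not called (adjusted p = 0.668). For uc.117 the minus probe fell by 2.35 and the plus probe rose by 1.47 in the same comparison. The minus probes of uc.195 and uc.117 met the filter through the cervical loop only, so their calls of unequal change do not count as support for a difference. The plus probe of uc.117 averaged -3.03 ± 0.12, -1.56 ± 0.28 and -3.25 ± 0.21 (SD, n = 5) in the order of the stages, a secretory peak where the minus probe was not detected. For uc.414, whose minus probe peaked in the secretory stage, the plus probe changed by 0.08 from secretory to maturation stage (adjusted p = 0.666) against a fall of 3.06 for the minus probe.

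In other elements the plus probe carried the larger change. For uc.363 the plus probe rose by 3.61 into and fell by 3.51 out of the secretory stage. The minus probe changed by 0.25 (adjusted p = 0.276, limma) and -0.60 (adjusted p = 0.0115). Between cervical loop and maturation stage uc.287 had a minus probe that fell by 1.69 on the log2 scale and a plus probe that rose by 3.11 (difference -4.80 ± 0.38, SE; adjusted p = 2.37e-08). From secretory to maturation stage its minus probe fell by 0.87 and its plus probe rose by 1.77. For uc.350 the minus probe rose by 1.26 and the plus probe fell by 3.14 from cervical loop to maturation (difference 4.40 ± 0.32, adjusted p = 1.77e-08), with the plus probe detected on all 5 cervical loop arrays and on 0 of the other 10. That plus probe met the filter through the cervical loop only, so this p-value does not count as support for a difference. The minus probes of uc.423 and uc.6 rose by 1.10 and 2.08 in that comparison, and their plus probes fell by 2.33 and 0.75 on the log2 scale. Every unequal change named here kept its call with quantile normalization, normexp, the deposited log2 table, the replicate block and each array left out. Only 1 of them, between secretory and maturation stage, had both probes detected on all 15 arrays, and its call was kept there. For the others that check was not possible.

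Several of the minus probes with a large stage difference had no plus probe to set beside them. The plus probes of uc.125, uc.392, uc.454, uc.10, uc.19 and uc.331 were detected on 0 of 15 arrays, and that of uc.199 on 1.

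**Figure D5:**
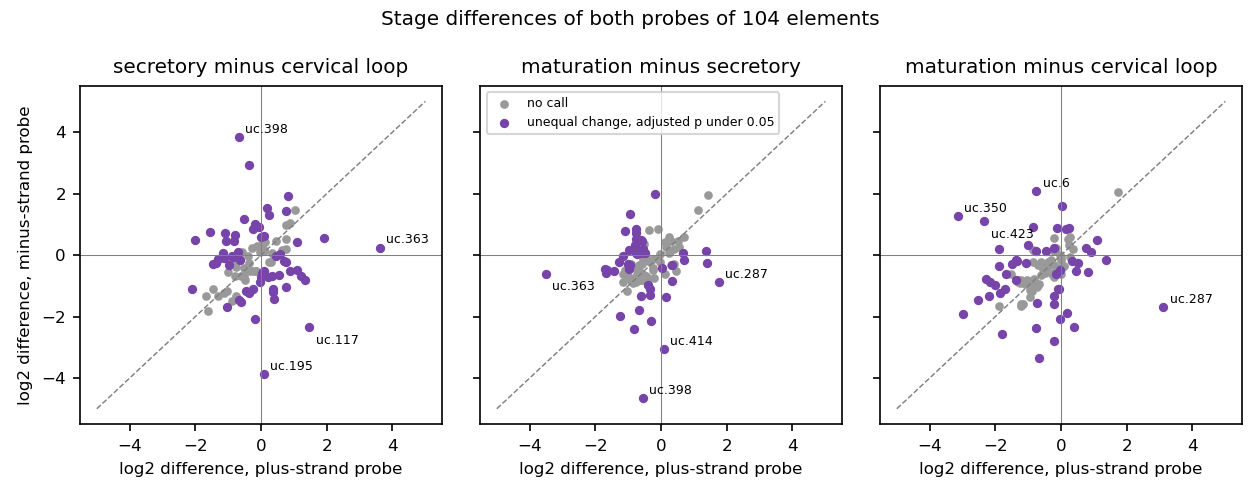
Log2 difference between stages of the plus-strand probe (horizontal axis) and the minus-strand probe (vertical axis) of the 104 elements with both probes tested; each point is an element, purple points changed by unequal amounts (limma, adjusted p under 0.05) and the dashed line marks equal change. The 4 elements with the largest unequal change in each comparison carry their number, among them uc.398 at 3.85 for the minus and -0.68 for the plus probe.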

How the data were processed

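Per the file headers, the deposited scanner files give linear intensities per spot (processed, median and local background signal) and, as other columns, 0 or 1 marks for detection, saturation and outlier spots. The submitters' processing notes name Agilent Feature Extraction 11.0.1.1. The authors' deposited series table of log2 values, of unstated normalization, served as an alternative; it holds 480 of the 481 minus probes.

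Flagged spots were left out (107 to 276 per array; saturated spots 0) and the spots of a probe averaged. The log2 of the processed signal less the array's 75th percentile was compared between stages by limma 3.58.1 (R 4.3.3), fitting the 15 arrays together over all 28863 features detected on every array of at least 1 stage. P-values were adjusted by Benjamini-Hochberg with a threshold of 0.05, and a fold minimum of 2 was applied where stated. Where all spots of a probe were flagged on an array (7 minus probes, 1 array each), the fit drops that array for that probe. Normexp (offset 50) used the median signal, since the files have no mean signal. Scripts were tested on simulated data. Python 3.11.15, pandas 2.3.3, numpy 2.4.6 and matplotlib 3.10.9 were used. P-values measure the spread between these arrays, whose number limits precision.

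Per comparison, the named probes were 8 increases and 8 decreases, taken by size among those called, without overlap and detected on all 5 arrays of the higher stage (7 met this for increases from secretory to maturation stage), the 4 elements with the largest unequal strand change, and the 5 probes with the smallest range of stage means. Members, lists and alternatives were chosen with earlier results of these data known. Same-numbered arrays were checked for shared deviations: correlations were 0.106 to 0.290 between maturation and secretory stage, -0.106 to 0.108 between secretory stage and cervical loop, and -0.0043 to 0.248 between maturation stage and cervical loop. The series design names 5 rats, so numbers were taken to pair the secretory and maturation arrays only.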

Additional observations from a re-analysis of the deposited data

Results flagged for a closer look

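In 9 of the 108 stage groups of the 36 named probes, 1 array lay far from the other 4 of its stage, with a gap of over 0.71 of the stage's range; chance flags about 1 in 20 groups. Secretory replicate 3 was the low array for uc.398- (-0.86, next 0.73) and uc.414- (1.13, next 2.28). Secretory replicate 4 was low for uc.47- (-3.84, next -2.97). Maturation replicate 5 was high for uc.47- (-4.55, next -5.16) and uc.305- (-2.04, next -2.56). Maturation replicate 3 was low for uc.77- (-1.27, next -1.0) and maturation replicate 4 for uc.325- (-0.96, next -0.23). Cervical loop replicate 2 was high for uc.246- (0.85, next 0.45), and cervical loop replicate 4 was low for uc.456- (-0.78, next -0.18). All 9 values were well above background. No call of a named probe was lost when any 1 array was left out.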

How the results depend on the processing

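Signals near background limit these results, and the normexp setting changed both the input signal and the background correction. Probes higher and lower from cervical loop to secretory stage numbered 48 and 73. Shares of all features follow in brackets. Counts without the filter are out of all 481 minus probes, and those on all arrays out of 142. The lower count was 16 with normexp (20.7%), 46 with quantile normalization (30.9%), 48 with median scaling (25.4%) and 43 with the deposited log2 table (31.1%). It was 118 without the filter (31.3%) and 44 for probes detected on all arrays (33.4%). With stages from the titles the higher count was 19 (12.7%). From secretory to maturation stage (13 higher, 96 lower) the higher count was 26 with quantile normalization (26.8%), 26 with median scaling (33.3%) and 24 with the deposited table (26.8%), and the lower count 227 without the filter (35.0%). With scan fixed they were 20 and 27, within the shared scan 8 and 9, and with the replicate block over both stages 22 higher. With the titles both were 0 (49 at an unadjusted p under 0.05, limma), and the sign turned for 15 of 15 named probes. From cervical loop to maturation (23 and 110) the higher count was 36, 43 and 38 with quantile normalization, median scaling and the deposited table (25.1%, 37.4% and 25.0%). The lower count was 64 with normexp (33.5%), and 69, 72 and 64 with those 3 (29.8%, 23.2% and 29.8%). It was 222 without the filter (41.1%), 70 for probes detected on all arrays (39.1%) and 66 with the titles (27.1%).

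Unequal strand change was called for 180 and 141 elements without the filter (secretory and maturation against cervical loop). With both probes on all arrays, a smaller set than the 104, it was called for 28, 20 and 20. The F test called 350 of all 481 minus probes without the filter. Every count without the filter here is out of 481. Shares over all features are not given for the counts of this paragraph, so they are not read against the array. Probes highest in the cervical loop (21) numbered 1 with normexp, 10 with quantile normalization, 10 with the deposited table, 48 without the filter and 8 on all arrays. Those highest in the secretory stage (9) numbered 14 without the filter and 0 with the titles, and in maturation (3) 1 with normexp, 1 on all arrays and 0 with the titles. Leaving out 1 array gave 41 to 49 higher and 62 to 76 lower, 10 to 15 and 90 to 105, and 21 to 24 and 101 to 115 in the 3 comparisons.

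With normexp the difference turned to 0.12, 0.10, 0.18 and 0.18 for uc.343-, uc.450-, uc.470- and uc.417- (secretory less cervical loop) and to -0.12 for uc.129- (maturation less secretory). The replicate block over all 3 stages gave 48 higher and 75 lower (21.8% and 37.6% of all features), 15 and 100 (26.0% and 34.8%), and 23 and 111 (20.9% and 43.2%). With it all 47 named differences kept their call. The causes of these changes were not tested.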
